A study of Haliotis discus hannai with 24 samples.

Results

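The genes described here are those whose transcripts were low in the cephalic tentacle of the Pacific abalone Haliotis discus hannai while being present at similar levels in the eyestalk and in the epipodial tentacle. They were chosen by a rule on the measured levels: the median CPM (counts per 1000000 counts of the library) had to be at least 10 in both the eyestalk and the epipodial tentacle, and the lower of these 2 medians, with 1 added, had to be at least 4-fold the cephalic median with 1 added, a log2 ratio of at least 2. The eyestalk and epipodial medians, each with 1 added, also had to lie less than 4-fold apart. The tables list 19700 genes, and 17233 of them have a count in some library. The rule was met by 93, fewer than the 100 at which the list would have been limited. Because all 24 libraries entered the rule, the low cephalic level of these genes is how they were chosen and not a finding. The label that these genes are low in the cephalic tentacle held for only some of them once libraries of low detection were left out, as described below.

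Abalone are marine snails with several kinds of sensory appendage. The eyestalks carry the eyes, the cephalic tentacles are paired feelers of the head that serve touch and chemical sensing, and the epipodial tentacles form a fringe of small feelers around the foot. Cephalic and epipodial tentacles are thus alike in shape and exposure, while the eyestalk neighbours the cephalic tentacle on the head. A transcript shared by the eyestalk and the epipodial tentacle but scarce in the cephalic tentacle follows neither of these 2 groupings.

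Polyadenylated RNA was sequenced from left and right eyestalks, left and right cephalic tentacles and left and right epipodial tentacles, giving 6 groups of 4 libraries and 8 libraries per organ. All animals carry the label Aquaculture in place of a genotype, the treatment of each group is the excision of the organ, and no age is given. The libraries from the left epipodial tentacle carry a treatment label that names the left cephalic tentacle, and their titles start with the letter found on right-side libraries of the eyestalk and cephalic tentacle, while titles of the right epipodial libraries begin with the letter for the left. They are described by their tissue label. All carry the same batch label. The number of animals sampled is not stated, so every p-value measures only the spread between these libraries, which may be technical. In whole organs, fewer cells of a type and less RNA per cell cannot be told apart. The files do not pair gene identifiers with names, so no function is given for any gene, few identifiers are printed, and the tissue labels could not be checked against marker genes.

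Total counts were 1692939 to 4479096 per eyestalk library, 473072 to 1939936 per cephalic library and 1700095 to 2146464 per epipodial library. Fewer than 6000 genes were detected in 7 libraries, which are called libraries of low detection here: left eyestalk replicates 2 and 3, right eyestalk replicate 1, left cephalic tentacle replicates 1 and 2, and right cephalic tentacle replicates 3 and 4. All 8 epipodial libraries had 8876 genes or more. In right eyestalk replicate 2 a single gene held 70.8% of the counts, which lowers the CPM of every other gene there. The main results are given with all libraries, without the 4 cephalic libraries of low detection and without all 8.

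Among the 93 genes the organ median ranged from 10.5 to 6851 CPM in the eyestalk, with a middle value of 22.5. In the epipodial tentacle it ranged from 10.2 to 3662 CPM, with a middle value of 29.9. The cephalic median ranged from 0 to 812 CPM, with a middle value of 2.26, and it was 0 for 15 genes and under 1 CPM for 36. Most of these genes were weakly expressed: the lower of the eyestalk and epipodial medians was under 20 CPM for 52 genes and 100 CPM or more for 11. The rule ratio (the log2 ratio defined above) ran from 2.00 to 5.82 with a median of 2.62. Just inside the threshold the 3 lowest ratios were 2.00, 2.01 and 2.01, and just outside it the 3 highest were 1.99, 1.98 and 1.97. There were 10 genes within 0.1 above the threshold and 11 within 0.1 below it, so the edge of the list is not a gap in the data.

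The same floor and the same evenness between eyestalk and epipodial tentacle, without the condition on the cephalic tentacle, were met by 2654 genes, the 93 included. These comparison genes had a median ratio of -0.17. When the rule was turned to another organ it found 187 genes low in the eyestalk only and 7 low in the epipodial tentacle only. Without the 8 libraries set aside these numbers were 134 for the eyestalk, 17 for the epipodial tentacle and 53 for the cephalic tentacle, in the same order.

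**Figure D1:**
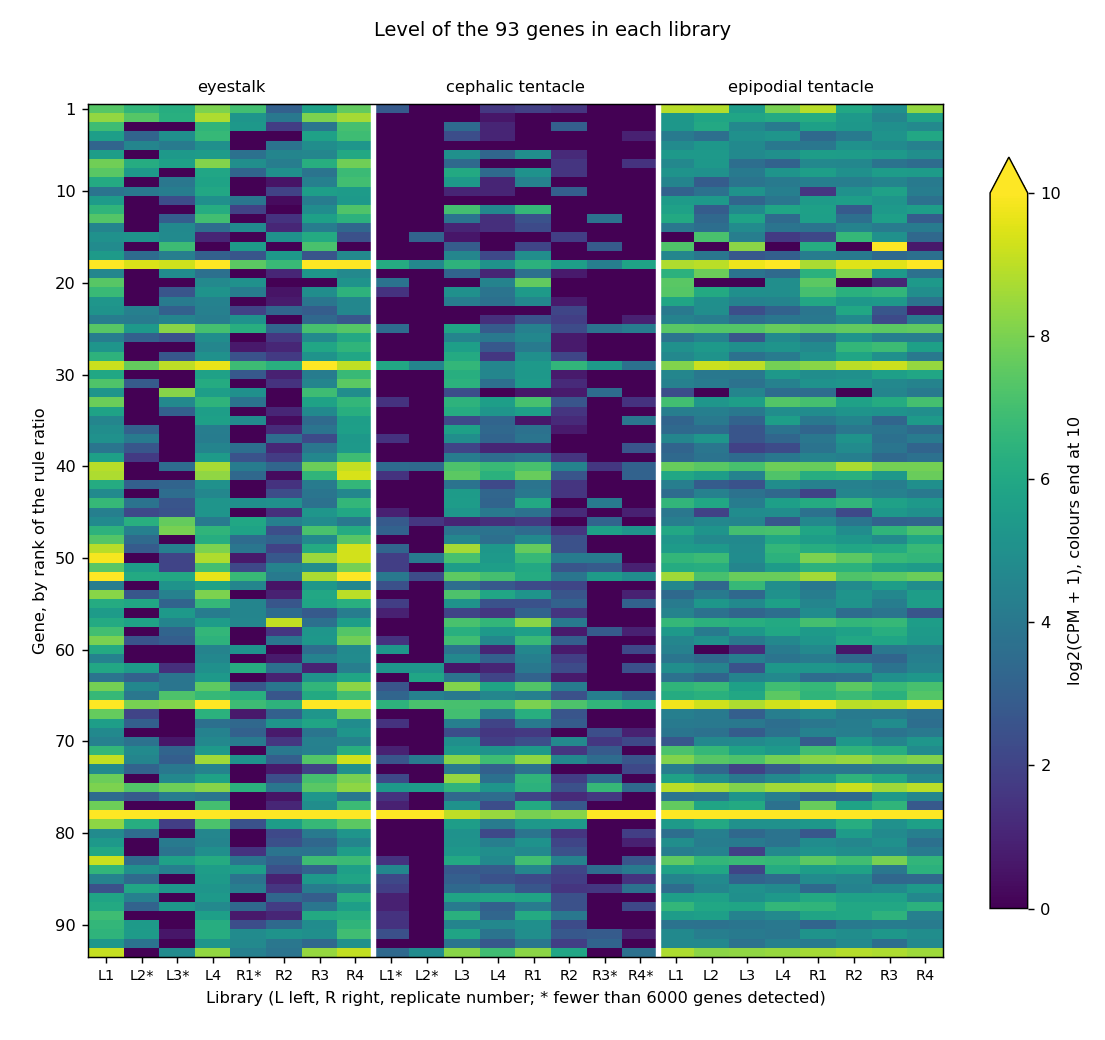
Level of the 93 genes (rows, from the highest to the lowest rule ratio) in the 24 libraries (columns, by organ, side and replicate number), as log2(CPM + 1). The cephalic columns marked with an asterisk are mostly at 0, and the cephalic columns L3, L4 and R1 carry colour in many rows.

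The cephalic libraries did not behave as 1 group. Of the 93 genes, 86 had a count in left cephalic tentacle replicate 3, 86 in left replicate 4, 84 in right replicate 1 and 75 in right replicate 2. In the libraries of low detection only 44 had a count in left replicate 1, 15 in left replicate 2, 28 in right replicate 3 and 37 in right replicate 4. The 2 sets of cephalic libraries do not overlap in this count, but they were split by the number of genes detected. The comparison genes separated as well: 9.31% to 24.9% were at 0 in the libraries of low detection and 0.414% to 1.81% in the others. In the 4 libraries of low detection 248 of 372 values were 0, which is 66.7%, against 15.2% of the values of the 2654 comparison genes. In the other 4 cephalic libraries 11.02% of the values were 0, against 0.848% of those of the comparison genes. Since the rule favours genes with cephalic zeros, an excess over the comparison genes follows from the choice of genes.

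Depth sets a limit to what a 0 means in these libraries. Right cephalic tentacle replicate 3 had 473072 counts and left replicate 2 had 494495, so that a 0 there allows a level of up to 6.34 and 6.07 CPM, taking 3 counts as the limit. In the other 6 cephalic libraries this limit was between 1.55 and 2.64 CPM. Such limits reflect counting error alone, because PCR copies of a molecule cannot be recognised here.

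Fewer of the genes also had a count in the eyestalk libraries of low detection. A count was found for 58 of the 93 genes in left eyestalk replicate 2, 67 in left replicate 3 and 64 in right replicate 1, against 85 in right replicate 2 and 92 or 93 in the other 4. In the epipodial tentacle 89 to 93 genes had a count in each library. The eyestalk libraries of low detection were as deep as the others, at 1692939 to 2201621 counts, so depth differed little there. Medians of sets of libraries were compared with 1 CPM added to each. The log2 ratio of the 4 eyestalk libraries set aside to the other 4 had a median of -3.04 over the 93 genes. Over the comparison genes this median was -1.91. For 63 of the 93 genes (67.7%) the median of the other 4 eyestalk libraries was at least 4-fold that of the set-aside ones. The same held for 47.9% of the comparison genes. The corresponding log2 ratio in the cephalic tentacle, of the 4 libraries of low detection to the other 4, was -3.44 over the 93 genes and -1.16 over the comparison genes. Because the rule favours genes with cephalic zeros, a lower cephalic ratio over the 93 genes is favoured by the choice of genes. The part of low detection in the choice of these genes was not tested, and values without these libraries follow.

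**Figure D2:**
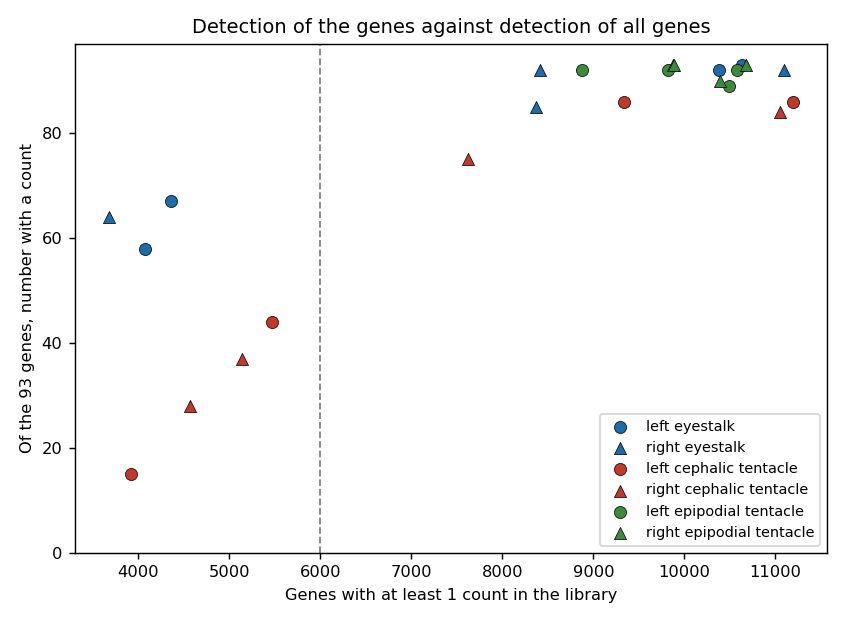
Number of the 93 genes with a count (vertical axis) against the number of all genes with a count (horizontal axis) in each of the 24 libraries, coloured by organ, with circles for left and triangles for right. The dashed line marks 6000 genes. Cephalic libraries left of it hold 15 to 44 of the genes and eyestalk libraries left of it 58 to 67.

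With the 4 cephalic libraries of low detection left out, and the other organs unchanged, the rule was met by 31 genes, of which 29 were among the 93. These 29 are 31.2% of the list. The other 64 fell below a ratio of 2: 9 lay between 1 and 2, 25 between 0 and 1, and 30 below 0, so that their median in the 4 remaining cephalic libraries was above the lower of the eyestalk and epipodial medians. Over all 93 genes the median ratio moved from 2.62 to 0.49, and over the comparison genes from -0.17 to -0.67. Without all 8 libraries set aside, eyestalk libraries included, the median ratio was 1.04 over the 93 genes and -0.19 over the comparison genes. Of the 93 genes 32 then had a ratio of 2 or more, 17 lay between 1 and 2, 24 between 0 and 1, and 20 below 0, and 30 met the whole rule. The loss of most of the list was thus seen in both settings, while the fall of the median was smaller in the second. In the 4 remaining libraries the 64 genes had cephalic medians of 2.11 to 209 CPM, with a middle value of 21.6 CPM, where the median over all 8 libraries had given a middle value of 2.36 CPM. For the 29 genes the middle value of the cephalic median was 2.07 CPM in the 4 remaining libraries and 0.784 CPM in all 8.

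The 29 included 7 of the 10 genes with the largest ratio and 13 of the 20 with the largest ratio, and a larger ratio passes more easily by construction. With 4 of the 8 cephalic libraries near 0, the median of 8 is set largely by the lowest of the remaining 4, and right cephalic tentacle replicate 2 often was that library: its level was below all of the 3 libraries with 9000 or more genes for 66 of the 93 genes. This library had 7622 genes detected, between the 4 of low detection and the 3 others. The comparison genes were not counted in this way. Their median was also lower there, at 33.5 CPM against 63.9, 44.4 and 64.1 CPM in the 3 others. The median of the 93 genes was 2.58 CPM there, against 31.4, 8.88 and 23.0 CPM in the same 3. Whether the count of 66 is particular to the list was not tested. When only the 3 cephalic libraries with 9000 or more genes were used, an alternative chosen after seeing the data, 26 of the 93 genes had a ratio of 2 or more, 46 had a ratio below 0 and the median ratio was 0.018, against -0.78 over the comparison genes. In 54 of the 93 genes at least 1 of these 3 libraries lay above the lower of the eyestalk and epipodial medians.

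**Figure D3:**
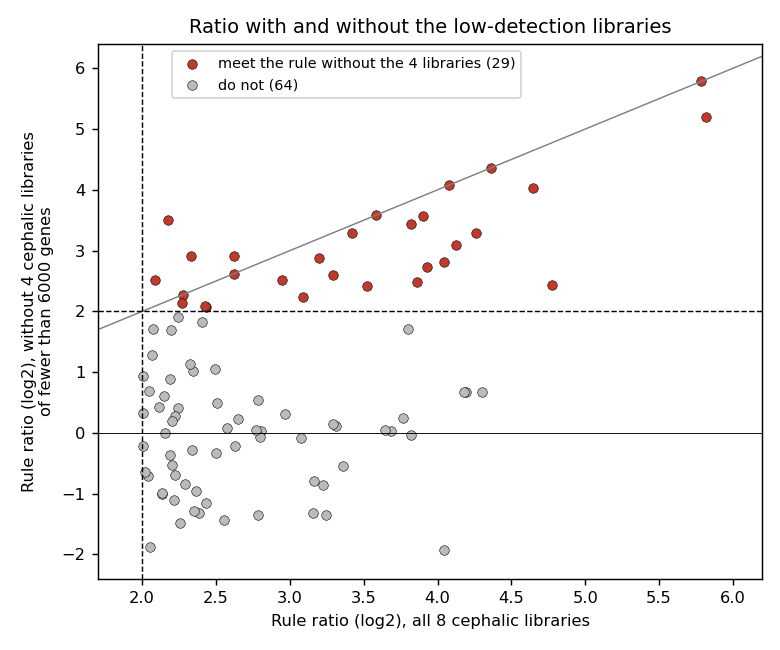
Rule ratio (log2) of each of the 93 genes with all 8 cephalic libraries (horizontal axis) and without the 4 cephalic libraries of low detection (vertical axis). Dashed lines mark the threshold of 2 and the grey line marks equal values. The 29 genes in red stay at or above the threshold and the 64 in grey fall below it, 30 of them below 0.

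HDSC61132CG00010, with a coding length of 324 bases, had the lowest ratio in the 4 remaining cephalic libraries and is named here for that reason, after its values were seen. Its cephalic values were 127, 23.5, 100.4 and 0 CPM in left replicate 3, left replicate 4, right replicate 1 and right replicate 2, and 0 CPM in the 4 libraries of low detection. In the eyestalk it ranged from 0 to 149 CPM with a median of 15.5, and in the epipodial tentacle from 6.12 to 57.2 CPM with a median of 44.8. The cephalic range thus overlapped both others, and the ratio went from 4.05 to -1.93 without the cephalic libraries of low detection and to -0.46 without all 8 libraries set aside.

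Only 3 genes had all 8 cephalic libraries below all 16 libraries of the other organs, and these are the same 3 that meet this condition among all 17233 genes with a count (0.0174%). They were HDSC00197CG00040, HDSC04364CG00010 and HDSC00067CG00120, the first and second having the largest rule ratios and the third being named because of this count. Since the rule used the contrast, the lack of overlap describes these genes and tests nothing. Of the 93 genes, 17 had all 8 cephalic libraries below all 8 epipodial ones (0.783% of all genes with a count did), and 5 had them below all 8 eyestalk ones (0.087% of all genes with a count). Among the 93, 7 had every cephalic library, 1 added, at least 4-fold below the lower of the eyestalk and epipodial medians. A comparison gene that meets this condition also meets the rule, so these 7 are the only ones among the 2654 comparison genes. This count too follows from the choice of genes.

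HDSC00197CG00040, with a coding length of 312 bases, had 0 CPM in left replicates 2 and 3 and right replicates 3 and 4 of the cephalic tentacle. It was at 6.11 CPM in left replicate 1, 2.09 in left replicate 4, 2.67 in right replicate 1 and 1.93 in right replicate 2. Its eyestalk values were 162, 94.9, 74.7 and 262 CPM on the left and 125, 7.37, 50.4 and 191 CPM on the right. The epipodial values were 490, 459, 44.9 and 245 CPM on the left and 485, 63.3, 30.6 and 335 CPM on the right. The highest cephalic value came from a library of low detection, and both it and the libraries of full detection were below every library of the other organs. The ratio was 5.82 with all libraries, 5.20 without the 4 cephalic libraries of low detection and 5.88 without all 8 libraries set aside.

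HDSC04364CG00010, with a coding length of 708 bases, had 1 count in all 8 cephalic libraries together, in left replicate 4. The left eyestalk libraries were at 328, 165, 78.3 and 437 CPM and the right ones at 36.6, 15.0, 258 and 397 CPM. In the epipodial tentacle it was at 38.2, 57.2, 57.2 and 67.9 CPM on the left and 71.7, 41.3, 22.6 and 51.2 CPM on the right. Transcripts of this gene were thus near absent from the cephalic tentacle, also in its 4 libraries of fuller detection. Pooled over libraries, the ratio of the eyestalk to the cephalic tentacle was 1976 with a 95% counting interval of 354 to 78067, and that of the epipodial to the cephalic tentacle was 536 with an interval of 95.9 to 21186. These intervals leave out the spread between libraries, and the pooled cephalic counts include the 4 libraries of low detection. The ratio by medians was 5.79 with or without the libraries of low detection, but without all 8 libraries set aside the eyestalk and epipodial medians were over 4-fold apart and the gene no longer met the rule.

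HDSC00067CG00120 was the only one of the 3 with a steady cephalic level. Its coding length was 1374 bases and its cephalic values ranged from 19.0 to 86.6 CPM, with a median of 51.1 CPM. The eyestalk libraries ranged from 108 to 1626 CPM with a median of 919 CPM, and the epipodial libraries from 419 to 1396 CPM with a median of 734 CPM. It was detected in all 24 libraries, and the ranges of the cephalic tentacle and the other organs were separate. Its ratio of 3.82 was 3.44 without the cephalic libraries of low detection.

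Another pair of genes, named because their cephalic count was 0, was detected in the other organs only; 0 counts over the cephalic group allow up to 0.285 CPM. HDSC02590CG00060 had a median of 19.5 CPM in the eyestalk (0 to 37.3) and 26.2 CPM in the epipodial tentacle (14.6 to 38.4). Against a floor of 3 counts over the cephalic group, which had 10527012 counts in all, it was at least 68.4-fold higher in the eyestalk and at least 89.1-fold higher in the epipodial tentacle. HDSC01203CG00010 had a median of 15.9 CPM in the eyestalk (0 to 44.3) and 39.1 CPM in the epipodial tentacle (8.51 to 48.0), at least 56.1-fold and 111-fold higher than the cephalic tentacle. In the eyestalk each of these genes was also at 0 in 1 library, so that the ranges met there. The pooled limit and the fold bounds of both genes reflect counting error alone, not the spread between libraries. The cephalic total behind them includes the 4 libraries of low detection, so they would be weaker without these.

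**Figure D4:**
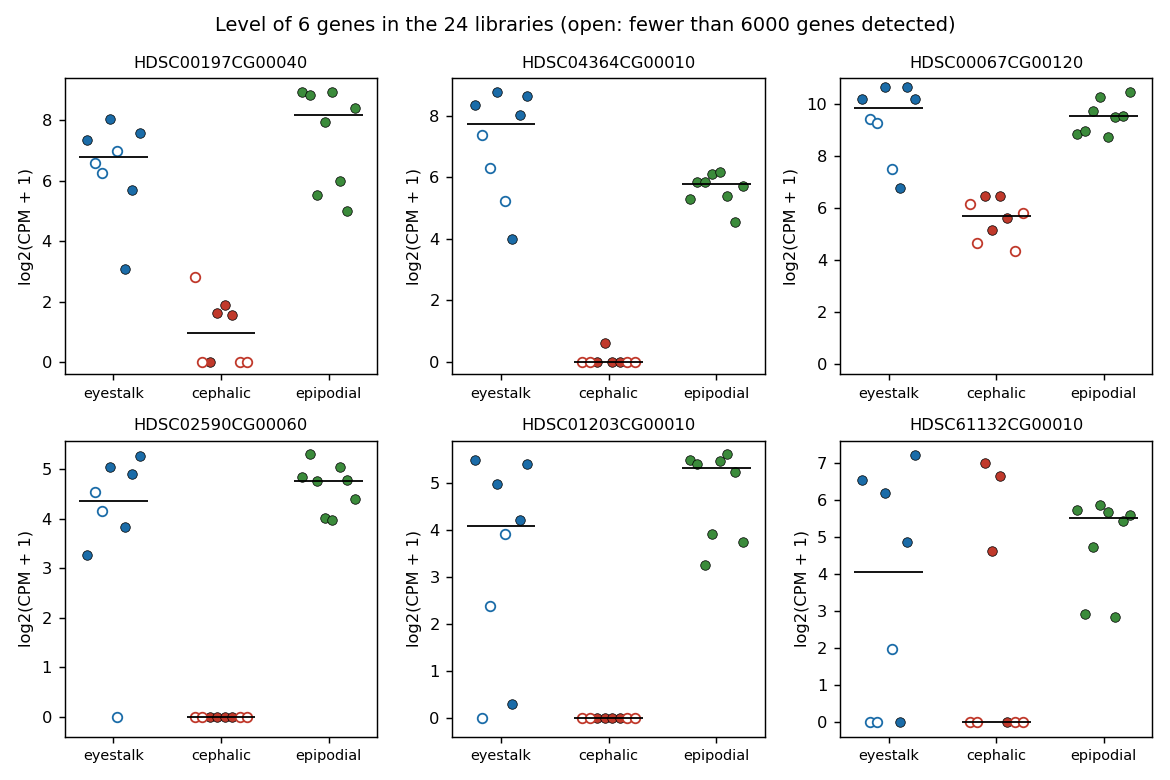
Level of 6 genes, as log2(CPM + 1), in the 8 libraries of each organ. Open symbols are libraries with fewer than 6000 genes detected and bars are medians. In HDSC00197CG00040, HDSC04364CG00010 and HDSC00067CG00120 the cephalic points lie below all others, and in HDSC61132CG00010 3 filled cephalic points lie at 23.5 to 127 CPM beside zeros.

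The most abundant of the 93 genes per length was HDSC07223CG00010, chosen after its values were seen, with a coding length of 444 bases and a median of 15431 FPKM (fragments per kilobase of coding length and per 1000000 counts of the library) in the eyestalk, 1828 FPKM in the cephalic tentacle and 8247 FPKM in the epipodial tentacle. By counts it was at 1345, 1108, 515 and 353 CPM in the left cephalic libraries and at 247, 288, 8622 and 1887 CPM in the right ones. Here the libraries of low detection were the high ones: all 4 of them were above all 4 others. Eyestalk values ranged from 1383 to 86941 CPM and epipodial values from 2314 to 11338 CPM, and right cephalic tentacle replicate 3 lay within both ranges. Leaving out the libraries of low detection therefore raised its ratio, from 2.17 to 3.51. In 5 of the 93 genes, all of them among the 29, the median of the 4 libraries of low detection was above that of the other 4.

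This gene weighed heavily in the sum over the list. The summed level of the 93 genes was 1033 to 9159 CPM in the cephalic libraries, 9572 to 16762 CPM in the epipodial libraries and 2879 to 90958 CPM in the eyestalk libraries. Without HDSC07223CG00010 the sum over the other 92 genes was 366 to 5273 CPM in the cephalic tentacle, with a median of 641. It was 5423 to 8258 CPM in the epipodial tentacle, with a median of 7611, and 1496 to 15640 CPM in the eyestalk, with a median of 6973. The highest cephalic value, in left replicate 3, stayed below every epipodial library but lay within the eyestalk range.

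The level of 2 genes differed by replicate number in all organs. In both, named for this after their values were seen, the 4 eyestalk and epipodial libraries of each of 2 numbers held at most 3 counts each. Genes outside the list were not searched for this pattern, so it is not given as a trait of the list. Both eyestalk libraries of number 2 are among those set aside. HDSC20106CG00010, with a coding length of 360 bases, had 0 counts in every library of number 2 and at most 1 in those of number 4. In number 1 it had 47 and 74 counts in the left and right eyestalk and 327 and 141 in the left and right epipodial tentacle. In number 3 it had 221 and 294 counts in the eyestalk and 640 and 2760 in the epipodial tentacle. The cephalic libraries had 0 counts on the left and 6 on the right in number 1, and 13 on the left and 3 on the right in number 3, so that within both numbers where the gene was present they were the lowest.

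HDSC07701CG00010 was present in numbers 1 and 4 instead. Its eyestalk counts were 293 and 55 in number 1 and 49 and 66 in number 4, left and right, and its epipodial counts were 367 and 354 in number 1 and 53 and 71 in number 4. In number 2 it had 0 counts in all 6 libraries, and in number 3 it had 2 counts in the right epipodial library and 0 in the other 5. The cephalic counts were 15 and 360 in number 1 and 40 and 0 in number 4. The 360 counts of right cephalic tentacle replicate 1, or 192 CPM, were above the 169 and 179 CPM that were the highest eyestalk and epipodial values, so the gene was not low in every cephalic tentacle. With 4 of the 8 eyestalk and of the 8 epipodial libraries at or near 0, the organ medians of both genes lie between the libraries with and without transcripts.

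**Figure D5:**
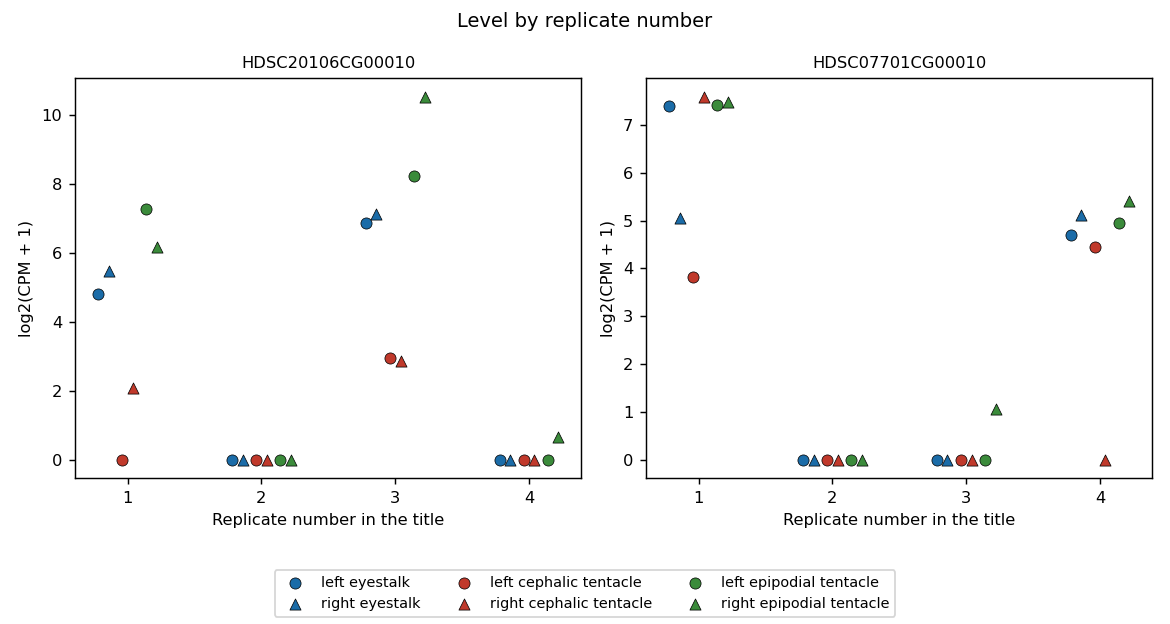
Level, as log2(CPM + 1), of 2 genes by the replicate number in the library's title, coloured by organ, with circles for left and triangles for right. HDSC20106CG00010 was at 0 or 1 count in numbers 2 and 4, and HDSC07701CG00010 at 0 to 2 counts in numbers 2 and 3, in all organs.

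Spread within an organ was larger for the 93 genes than for the comparison genes. The median over genes of the ratio of the highest to the lowest library, with 1 CPM added, was 34.0 in the cephalic tentacle against 20.1 for the comparison genes, and 62.8 against 20.5 in the eyestalk. In the epipodial tentacle, which held no library of low detection, it was 4.16 against 2.80. The rule favours genes with cephalic zeros, so the larger cephalic spread follows from the choice of genes. The 93 genes were also less abundant: their median in an epipodial library was 22.2 to 35.2 CPM, against 37.3 to 55.5 CPM for the comparison genes. Spread was not compared at matched levels.

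A fit over all 24 libraries (edgeR's quasi-likelihood test with Benjamini-Hochberg adjustment over 7341 tested genes) was used for the comparisons between groups. All 93 genes passed the filter on low counts, which follows from their floor in 2 organs. Against the cephalic tentacle 27 of the 93 genes were called higher in the eyestalk, where 1.35% of all tested genes were called in that direction. In the epipodial tentacle 19 were called higher than in the cephalic tentacle, where 1.48% of all tested genes were. These shares are those the rule selects for, and nothing is read from them. Both comparisons use the same cephalic libraries.

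The fitted log2 fold change over the cephalic tentacle had a median of 2.14 over the 93 genes for the eyestalk and of 1.79 for the epipodial tentacle, against -0.01 and 0.19 over all tested genes. It was above 0 for 93 and 90 of the 93 genes. Without the 4 cephalic libraries of low detection, an alternative added after seeing the data, these medians were 1.61 and 1.35, and 18 and 8 genes were called, 17 and 8 of them among the 27 and 19, where 0.692% and 0.352% of all tested genes were called in these directions. Without all 8 libraries set aside the calls rose instead, to 37 for the eyestalk, where 1.5% of all tested genes were called higher, and to 23 for the epipodial tentacle, where 1.51% were. Of these, 21 and 14 were among the 27 and 19, and the medians were 1.79 and 1.38. Both fits rest on fewer libraries.

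Between the eyestalk and the epipodial tentacle the rule had bounded the difference of medians at 4-fold. Within this bound 60 genes were lower and 33 higher in the eyestalk, 70 were within 2-fold, and the median log2 ratio was -0.31, against -0.55 over the comparison genes. The edgeR fit called 3 of the 93 genes higher in the eyestalk, where 1.01% of all tested genes were called in that direction, and 0 lower, where 3.96% were. The 3 were HDSC04364CG00010, HDSC02685CG00030 and HDSC00277CG00080, named because they were so few, with log2 fold changes of 2.24 (SE 0.50), 2.82 (SE 0.69) and 2.74 (SE 0.78) and edgeR adjusted p of 0.00599, 0.0108 and 0.0320. Over the 93 genes the fitted log2 fold change had a median of 0.35, opposite in sign to the ratio of medians. Over all tested genes the median in this comparison depended on scaling, at -0.18 with TMM, 0.01 with RLE and -0.44 with totals alone. With totals alone 0 of the 93 genes were called, against 4.1% of all tested genes. Without the 8 libraries set aside 13 were called higher and 1 lower in the eyestalk, 14 in all, against 5.46% of all tested genes. HDSC02685CG00030 ranged from 18.1 to 278 CPM in the eyestalk, with a median of 73.2, and from 7.86 to 39.8 CPM in the epipodial tentacle, with a median of 18.2. HDSC00277CG00080 ranged from 14.8 to 198 CPM and from 5.61 to 24.7 CPM, with medians of 27.0 and 16.2. HDSC04364CG00010 ranged from 15.0 to 437 CPM in the eyestalk and from 22.6 to 71.7 CPM in the epipodial tentacle. In all 3 genes the ranges of these organs overlapped.

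The rule pooled the sides, so it did not use the comparison of left with right directly. For the cephalic tentacle it still favours genes low in right replicate 2, as described above. Left-right values of the 93 genes there are thus not independent of the choice. In the cephalic tentacle edgeR called 0 of the 93 genes and 0 of all 7341 (0%), and 1 of the 93 had an unadjusted p under 0.05, where 1.36% of all tested genes had. DESeq2 called 0 of the 93 as well, with 2 below that unadjusted p, where 2.25% of all genes it tested were. In the eyestalk edgeR called 0 of the 93 and 0 of all genes, and 0 of the 93 fell under an unadjusted 0.05, against 2.45% of all tested genes. DESeq2 called 0 there, with 2 under an unadjusted 0.05, against 2.79% of all genes. For the epipodial tentacle the calls were again 0 and 0, with 0 of the 93 at an unadjusted p under 0.05 against 0.0545%, and DESeq2 called 0, with 0 at an unadjusted p under 0.05 against 0.0692%. Counts of 0 to 2 genes this near the shares of all genes are no result about the 93.

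The size of the left-right difference in these genes varied by organ. The median absolute log2 fold change over the 93 genes was 0.65 in the cephalic tentacle, 0.39 in the eyestalk and 0.24 in the epipodial tentacle, against 0.60, 0.53 and 0.26 over all tested genes. In the cephalic tentacle 56 genes were higher and 35 lower on the left, with a median log2 fold change of 0.32, and each side held 2 libraries of low detection. Over all tested genes 49.4% were higher on the left with TMM factors and 59.4% with DESeq2. With the cephalic libraries fitted alone only 23 of the 93 genes passed the filter, of which 11 were higher and 12 lower on the left with a median of -0.06, so no side is given for the list. Without right cephalic tentacle replicate 1, 18 of the 93 genes had an unadjusted p under 0.05 in this comparison, against 7.03% of all tested genes, and 0 were called. That is the highest count when single libraries were left out (1 to 18). It leaves right replicate 2 as the only right library not of low detection, and the rule favours genes low in that library. Nothing is read from this count.

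Left and right epipodial libraries of the same number deviated together, so the 8 epipodial libraries were also fitted alone with the number as a block, a fit added after seeing the data. Of the 93 genes, 9 had an unadjusted p under 0.05 in this fit, against 7.58% of the 5740 genes tested. It called 0 of the 93 and 1 gene in all (0.0174%).

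The genes with the smallest p on each side had wide intervals. In the cephalic tentacle HDSC00881CG00100 had 0 CPM in all 4 left libraries and in 3 of the right ones, and 3.22 CPM in right replicate 2. Its unadjusted p of 0.0250 (edgeR adjusted p = 1) rests on that library. HDSC03446CG00040 was at 0, 58.6, 13.4 and 3.14 CPM on the left and at 8.01, 0.645, 0 and 0 CPM on the right. Its log2 fold change was 2.65, with an SE of 1.31 (edgeR adjusted p = 1), and it was 1.04 without left replicate 2 and 4.63 without right replicate 1. These sides overlapped. In the eyestalk HDSC00118CG00140 was at 47.8, 7.27, 0 and 11.8 CPM on the left and at 9.45, 36.6, 58.5 and 28.1 CPM on the right. Its log2 fold change was -2.25, with an SE of 1.14 (edgeR adjusted p = 1), and the sides overlapped.

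HDSC07223CG00010 had the smallest p among genes higher on the left in the eyestalk and again in the epipodial tentacle, with log2 fold changes of 2.03 (SE 1.22) and 0.93 (SE 1.18). The left eyestalk value of replicate 3, 86941 CPM, carried the first: without that library the log2 fold change was -0.53. The epipodial value of left replicate 3, 11338 CPM, carried the second, which was -0.10 without it. HDSC03330CG00110 had the smallest p among genes lower on the left in the epipodial tentacle, with a log2 fold change of -0.92 (SE 1.20), at 8.39, 14.1, 2.84 and 3.93 CPM on the left and 13.1, 27.0, 14.0 and 8.23 CPM on the right. It was -1.47 without left replicate 2 and -0.55 without right replicate 2. Within each number of HDSC03330CG00110 the right value was the higher, while the sides overlapped.

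Coding length, which the rule did not use, is given as a description without a test. It ranged from 201 to 3165 bases with a median of 708, against 855 over the comparison genes and 603 over the 17233 genes with a count. Lengths under 300 bases made up 6.45% of the 93 genes and 7.12% of the comparison genes. Per length, the organ medians had middle values of 35.2 FPKM in the eyestalk, 3.10 FPKM in the cephalic tentacle and 42.5 FPKM in the epipodial tentacle. The 29 genes that met the rule without the cephalic libraries of low detection had a median length of 702 bases and the other 64 one of 726 bases.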

How the data were processed

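The series holds 24 RNA-seq libraries. Per the labels' protocols, RNA was extracted with TRIzol and libraries were built with a VAHTS Universal V6 kit. Reads were handled with fastp, HISAT2 and HTSeq, per the submitters' processing notes. The sources used here give no versions, genome build, annotation or strand setting, so overlapping genes and near-identical copies are uncertain. The authors deposited raw whole-number counts per gene and FPKM values, which equal the count per coding length and library total; lengths recovered from this were whole within 0.001 for 100% of genes, and 99.4% were divisible by 3.

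Groups follow the tissue label and replicate numbers the titles. CPM was computed from column totals. The test on counts was edgeR 4.0.16 under R 4.3.3 (filterByExpr over 6 groups, TMM factors, robust quasi-likelihood fit of 6 group means, Benjamini-Hochberg adjustment, threshold 0.05). On simulated data it returned fold changes near those simulated but called only some of the changed genes, so a gene without a call may still differ. Apart from depth and the genes lowered in the cephalic tentacle, all simulated libraries shared the same profile of levels. They held no left-right difference and no library dominated by a single gene. Accuracy on libraries as uneven as the real ones was therefore not tested. DESeq2 1.42.0 was an alternative. The genes, the threshold of 6000 detected genes and the alternatives were chosen with earlier results of these data known. Named genes are the 2 with the largest ratio and, for each left-right comparison, the one with the smallest p in each direction; others are said to be chosen after their values were seen, or to be named because they are few.

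Pairing by replicate number was checked by correlating deviations from group means across genes, with a bound of 0.1 for every number. It held between organs (0.21 to 0.45 for eyestalk and cephalic tentacle, 0.36 to 0.55 for the tentacles, 0.36 to 0.56 for eyestalk and epipodial tentacle) and between epipodial sides (0.68 to 0.77), but not between the sides of the eyestalk (-0.13 to 0.61) or the cephalic tentacle (-0.24 to 0.17). The labels do not say what the numbers stand for.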

Additional observations from a re-analysis of the deposited data

Results flagged for a closer look

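Single libraries stood apart from the rest of their group in 15 of 54 sets of values examined, where chance alone flags about 1 in 20 groups. That rate is no yardstick here, because many sets are genes named for extreme or single-library values and some sets contain others. The causes were not tested. The summed level of the 93 genes was highest in left eyestalk replicate 3 (90958 CPM, next 19447) and in left epipodial tentacle replicate 3 (16762 CPM, next 12494). HDSC07223CG00010 was highest in the same libraries, at 86941 CPM (next 11018 in the eyestalk and 9350 on its left side) and 11338 CPM (next 4235), and in right cephalic tentacle replicate 3 at 8622 CPM (next 1887). HDSC00277CG00080 was also highest in left eyestalk replicate 3, at 198 CPM (next 77.7). HDSC07701CG00010 reached 169 CPM in left eyestalk replicate 1 (next 33.7) and 192 CPM in right cephalic tentacle replicate 1 (next 20.9). HDSC20106CG00010 reached 1483 CPM in right epipodial tentacle replicate 3 (next 302). In the cephalic tentacle HDSC00197CG00040 was highest in left replicate 1 (6.11 CPM, next 2.67), HDSC04364CG00010 in left replicate 4 (0.523 CPM, 0 in the others) and HDSC02685CG00030 in left replicate 3 (9.79 CPM, next 1.93). On the right side of the cephalic tentacle HDSC03446CG00040 was highest in replicate 1 (8.01 CPM, next 0.645) and HDSC00881CG00100 in replicate 2 (3.22 CPM, 0 in the others).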

How the results depend on the processing

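The number of genes that met the rule was 93, and it was 53 without the 8 libraries set aside (30 of them among the 93), 31 without the 4 cephalic libraries of low detection (29), 37 with the 3 cephalic libraries of 9000 or more genes (26), 30 with a pseudocount of 5 (30), 41 with a floor of 20 CPM (41) and 44 with organ means in place of medians (26). With TMM-scaled CPM it was 71 (55), with the left libraries alone 83 (43) with the right libraries alone 131, of which the first 100 held 56, and with a floor of 5 CPM 182, of which the first 100 held 52. Leaving out single libraries gave 47 to 100 genes in the limited list and 47 to 181 before the limit, most without left cephalic tentacle replicates 3 or 4 (178 and 179) or right replicate 1 (181) and fewest without left eyestalk replicates 1 or 4 (48 and 48) or right eyestalk replicate 4 (47), with 43 to 88 genes shared. The median log2 ratio of organ medians over the 93 genes was 2.96 for the eyestalk and 3.20 for the epipodial tentacle over the cephalic tentacle. It was 1.87 and 1.08 without the libraries set aside, 0.67 and 1.08 without the 4 cephalic libraries, and 0.24 and 0.68 with the 3 cephalic libraries, and 2.17 to 3.65 and 2.83 to 3.92 when single libraries were left out. Of the 93 genes, 46 were called between eyestalk and cephalic tentacle by DESeq2, against 6.63% of all genes in either direction (27 by edgeR, against 4.37%), and 22 to 33 without single libraries. Between epipodial and cephalic tentacle 30 were called with no filter, against 1.88% of all genes, and 8 without the 4 cephalic libraries, against 0.621% (19 with all, against 2.23%), and 16 to 23 without single libraries. Between eyestalk and epipodial tentacle 0 were called with library totals, against 4.10% of all genes, and 14 without the libraries set aside, against 5.46% (3 with all, against 4.97%), and 2 to 3 without single libraries. With the replicate number as a block 31, 28 and 4 genes were called in these comparisons, against 5.61%, 3.46% and 6.53% of all genes, and 0 in each left-right comparison; the block moved no count of these adjusted calls by over 1.5 times. At an unadjusted p under 0.05 it moved the count from 1 to 0 between the cephalic sides and, with the epipodial libraries fitted alone, from 1 to 9. The left-right comparisons gave 0 calls among the members tested in every alternative run, which were 23 of the 93 where the cephalic libraries were fitted alone and all 93 in the other fits, with 0 to 0 when single libraries were left out. The log2 fold change of HDSC07223CG00010 between left and right eyestalk turned to -1.25 without the libraries set aside and to -0.53 without left eyestalk replicate 3 (-0.53 to 2.78 when single libraries were left out), and in the epipodial tentacle to -0.10 without left replicate 3 (-0.10 to 1.23). The causes were not tested.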
